A study of Homo sapiens with 6 samples.

Results

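The 10 genes described here were SMAD2, SMAD3, SMAD4, SMAD6, SMAD7, ID1, ID2, ID3, BAMBI and FST, which were picked by symbol among 58302 gene entries and not by their measured values. They cover the signal carriers of the TGF-β family (SMAD2, SMAD3 and SMAD4), the inhibitory SMADs (SMAD6 and SMAD7), the ID genes, and the antagonists BAMBI and FST. Expression was measured by RNA sequencing in Ker-CT cells, a line of human skin keratinocytes immortalised with telomerase and CDK4. The siKMT2C group had 3 libraries from cells given siRNA against KMT2C, a histone H3 lysine 4 methyltransferase, and the siNC group had 3 libraries from cells given negative-control siRNA. Both groups were held for 24 h in M5, a mixture with 10 ng/ml each of oncostatin M, TNF-α and the interleukins IL-1α, IL-17A and IL-22 that is used to model psoriatic keratinocytes. No sample without M5 was analysed here. The comparison asks, per the series title, what depletion of KMT2C does to expression in such cells. The labels do not say that replicates were separate cultures, so p-values cover the spread between these libraries, which may be technical.

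Ligands of the TGF-β family bind pairs of serine/threonine kinase receptors, which phosphorylate receptor SMADs. SMAD2 and SMAD3 carry TGF-β and activin signals, SMAD1, SMAD5 and SMAD9 carry BMP signals, and all of them join SMAD4 to act on chromatin. SMAD6 and SMAD7 are induced by the pathway and block it at the receptors, BAMBI is a receptor-like protein without a kinase domain, and FST (follistatin) binds activins outside the cell. ID proteins lack a DNA-binding domain and hold basic helix-loop-helix E proteins off DNA, and their genes are classical targets of BMP signals. In epidermis TGF-β is known as a brake on keratinocyte growth, and ID genes are linked to the undifferentiated state.

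Promoter sequence is shown for 5 genes: ID1, FST and SMAD3, which had the smallest p, BAMBI, which had the largest positive fold change, and SMAD6, whose window held a palindromic SMAD motif. Each line gives the 250 bases before the first listed transcription start, 5′ to 3′ on the gene's strand, from RefSeq on GRCh38.p14. Capitals mark GTCTAGAC, a palindrome that SMAD3 and SMAD4 are known to bind, GGCGCC, a GC-rich SMAD motif known from BMP target genes, and TATAAA, the TATA element. All motifs were searched on both strands.
ID1, chr20:31605039-31605288, plus strand: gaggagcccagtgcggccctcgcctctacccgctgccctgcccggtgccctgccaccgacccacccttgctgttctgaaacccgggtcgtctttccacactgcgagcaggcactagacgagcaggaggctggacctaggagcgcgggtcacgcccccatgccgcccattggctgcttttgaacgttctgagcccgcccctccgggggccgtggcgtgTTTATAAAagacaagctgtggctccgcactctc
SMAD3, chr15:67065352-67065601, plus strand: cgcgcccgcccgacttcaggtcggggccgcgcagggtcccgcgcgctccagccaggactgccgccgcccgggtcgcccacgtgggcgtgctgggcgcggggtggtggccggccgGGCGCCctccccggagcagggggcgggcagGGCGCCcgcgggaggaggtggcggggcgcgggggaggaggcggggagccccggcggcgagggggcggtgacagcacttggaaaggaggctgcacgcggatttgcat
SMAD6, chr15:66701986-66702235, plus strand: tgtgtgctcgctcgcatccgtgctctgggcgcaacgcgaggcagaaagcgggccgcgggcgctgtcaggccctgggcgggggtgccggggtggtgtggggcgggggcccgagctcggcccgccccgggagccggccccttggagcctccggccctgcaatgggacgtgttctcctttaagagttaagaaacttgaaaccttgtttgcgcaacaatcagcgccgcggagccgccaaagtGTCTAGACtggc
BAMBI, chr10:28677271-28677520, plus strand: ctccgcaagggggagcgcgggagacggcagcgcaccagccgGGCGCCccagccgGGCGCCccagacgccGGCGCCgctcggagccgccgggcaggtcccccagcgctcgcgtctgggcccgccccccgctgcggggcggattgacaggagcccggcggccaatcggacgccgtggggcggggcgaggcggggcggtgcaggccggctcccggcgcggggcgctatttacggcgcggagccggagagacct
FST, chr5:53480379-53480628, plus strand: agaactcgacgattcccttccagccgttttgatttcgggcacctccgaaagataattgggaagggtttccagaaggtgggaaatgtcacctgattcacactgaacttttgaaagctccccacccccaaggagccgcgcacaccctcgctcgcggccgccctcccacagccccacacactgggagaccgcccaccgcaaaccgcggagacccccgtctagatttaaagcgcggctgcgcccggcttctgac
GTCTAGAC occurred in the window of SMAD6 alone among the 10 genes, beginning 12 bases before the start, and in 0.182% of 35116 RefSeq windows of that length. GGCGCC occurred in windows of SMAD2, SMAD3 (only the first of its 5), SMAD4 and BAMBI, with 3 copies for BAMBI, and in 16.4% of all windows. That share counts windows and not genes. The first windows of the 10 genes had a median GC content of 68.2%, against 58.0% in the RefSeq set. An excess of this all-GC motif can therefore not be read from the share. TATAAA lay in a window of ID1, where it overlaps its reverse complement TTTATA, and in 1 of the 3 windows of SMAD7, against 10.7% of all windows. ID2, ID3 and FST held none of the 3 motifs. The 10 genes had 17 windows in all, since SMAD2, SMAD3 and SMAD7 have more than 1 listed start. The data hold no binding or chromatin measurement, so the matches are letters in a window only.

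The libraries held 14409277 to 17539519 counts, and mitochondrial transcripts made up 4.83% to 6.65% of them. KMT2C itself lay at 27.3 to 32.0 CPM (library-scaled counts, with TMM factors) in siKMT2C and at 72.6 to 87.9 CPM in siNC, a log2 fold change of -1.43 (SE 0.14, edgeR adjusted p = 0.00786). Keratinocyte identity was checked on 10 marker genes, all of which were expressed, with a summed level of 14037 to 19962 CPM in siKMT2C and 14473 to 22196 CPM in siNC. None of the 10 had an edgeR adjusted p under 0.05. Their log2 fold changes were negative in 8, with a median of -0.30, beside -0.0025 over all genes tested. The groups did not overlap in 2 of them, 1 lower and 1 higher in siKMT2C, beside 24.1% of all genes. The 6 fibroblast markers summed to 13.2 to 17.3 CPM in siKMT2C and 20.4 to 30.4 CPM in siNC, with PDGFRA at 0 counts in siKMT2C and 3 in siNC. By mean CPM COL1A1 (10.6 in siKMT2C, 18.1 in siNC), COL1A2, DCN and PDGFRA were lower in siKMT2C. COL3A1 (38 counts in siKMT2C, 23 in siNC) and LUM (23 and 14) were higher, at few counts. The groups did not overlap for COL1A1 and DCN and overlapped for COL1A2, COL3A1, PDGFRA and LUM. The 5 melanocyte markers summed to 6.67 to 8.35 and 6.99 to 15.1 CPM, with TYR and DCT at 0 counts. MITF (245 counts in siKMT2C, 458 in siNC) and PMEL (54 and 68) were lower in siKMT2C, and MLANA (59 and 44) was higher. The 3 endothelial markers reached at most 0.0692 CPM, with PECAM1 and CDH5 at 0. The 5 immune markers summed to 0.123 to 0.321 and 0.969 to 1.07 CPM, mostly from CD14 (10 counts in siKMT2C and 50 in siNC), with PTPRC, CD3E and CD207 at 0. The part of fibroblast, melanocyte and immune transcripts in the results was not tested, and in such bulk libraries fewer cells of a type and less RNA per cell cannot be told apart. Replicate 3 of siNC differed most from the other libraries of its group. For the 10 genes, values without it are given where it decides a call or moves a value by over 1.5 times.

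On the deposited per-length scale (FPKM, fragments per kilobase, scaled to depth) the 10 genes spanned from ID1, at a mean of 33.6 ± 0.964 FPKM in siNC (SD, n = 3), to SMAD6, at 0.0551 ± 0.0335 FPKM. In siNC the order was ID1, FST, SMAD3, ID3, SMAD4, SMAD7, BAMBI, SMAD2, ID2 and SMAD6. Libraries of neighbouring genes overlapped between SMAD4 and SMAD7, SMAD7 and BAMBI, and BAMBI and SMAD2, and not between the other neighbours. In siKMT2C ID1 (21.3 ± 2.62 FPKM) and FST (21.8 ± 0.901 FPKM) overlapped, whereas in siNC every ID1 value lay above every FST value (15.3 ± 1.26 FPKM). SMAD3 (6.93 ± 0.213 FPKM) and ID3 (6.41 ± 0.554 FPKM) likewise overlapped in siKMT2C only. The length behind these values was 58135 bases for SMAD2 and 25461 for SMAD4, as the counts and FPKM imply, against 2227 for ID1. Per-length levels of SMAD2 and SMAD4 therefore rest on annotated exons that these cells may not all use.

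**Figure D1:**
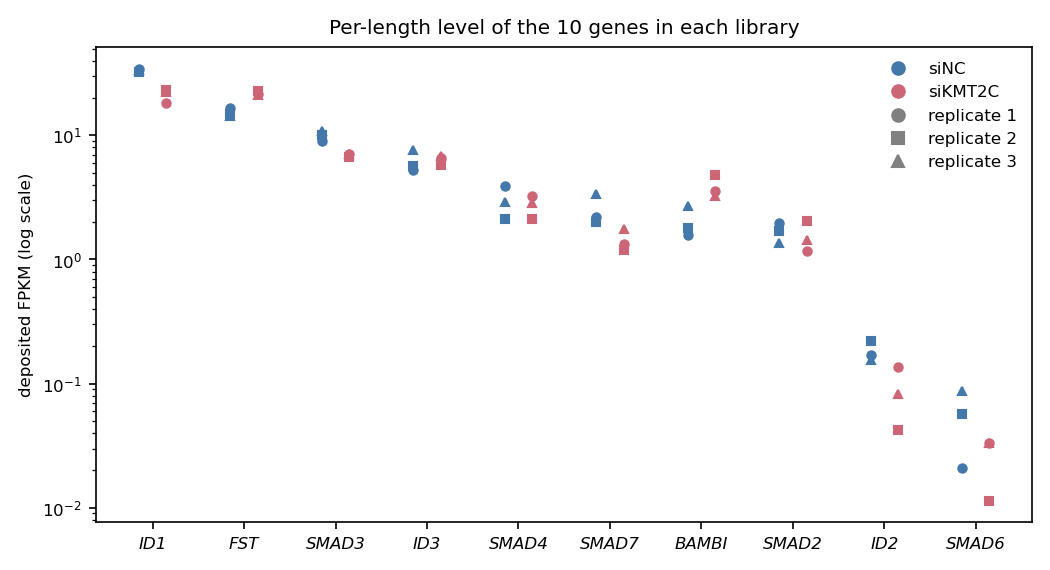
Deposited FPKM on a log axis for each of the 10 genes, ordered by the siNC mean, with one point per library (blue siNC, red siKMT2C, marker shape for the replicate number). ID1 and FST are apart in siNC and level in siKMT2C, and ID2 and SMAD6 lie far below the rest.

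SMAD3, SMAD7 and ID1 were lower and BAMBI and FST higher in every siKMT2C library than in every siNC library. Between the groups the edgeR fold changes were 1.41-fold to 1.94-fold. Single libraries lay closer, such as 17.0 CPM in siKMT2C and 19.1 CPM in siNC for SMAD7. ID2 was also lower in every siKMT2C library, at a level near the detection limit. SMAD2, SMAD4 and ID3 overlapped between the groups, and SMAD6 was too low to be tested. None of the 9 tested genes passed edgeR's quasi-likelihood test after Benjamini-Hochberg adjustment over the 15063 genes tested, in which 1.5% of all genes were called at an adjusted p under 0.05. On simulated counts with planted changes, the same test called 1.54% of the 1.5-fold, 38.5% of the 2-fold and 90.5% of the 4-fold ones. A gene not called is therefore not shown to be unchanged. At an unadjusted p under 0.05 the edgeR test took 5 of the 9, beside 16.9% of all genes. The groups did not overlap in 6 of the 9, beside 24.1% of all genes; 4 were lower (12.3% of all genes) and 2 higher (11.8%). Their median log2 fold change was -0.11, beside -0.0025 over all genes tested.

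**Figure D2:**
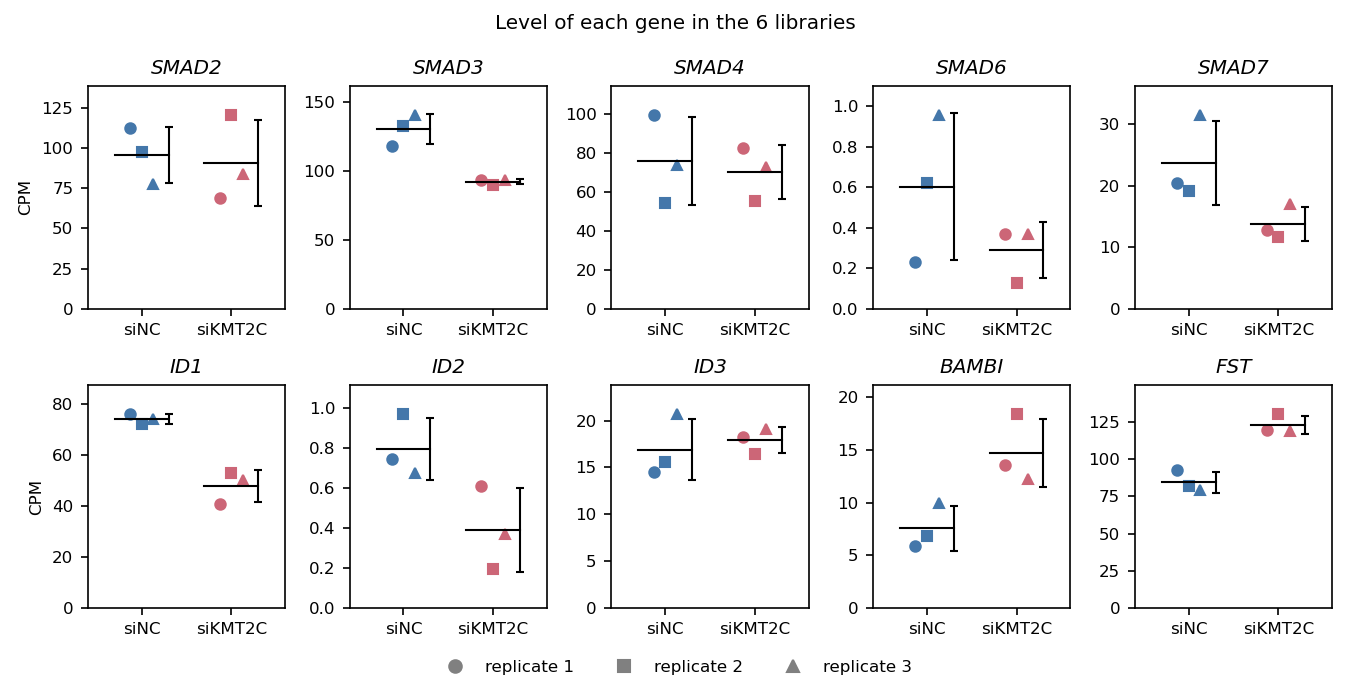
Level of each gene in CPM, in 3 siNC (blue) and 3 siKMT2C (red) libraries, with the group mean as a line, the SD as an error bar and the replicate number as marker shape; each vertical axis starts at 0. The groups are apart for SMAD3, SMAD7, ID1, ID2, BAMBI and FST and overlap for SMAD2, SMAD4, SMAD6 and ID3.

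SMAD3, the receptor SMAD that itself binds DNA, was at 93.2, 89.8 and 93.1 CPM in siKMT2C replicates 1 to 3 and at 118.1, 132.1 and 140.2 CPM in siNC replicates 1 to 3. All siKMT2C values lay within a narrow band below the lowest siNC value. The mean was 70.7% of that in siNC, and the log2 fold change was -0.50 (SE 0.12, 95% interval -0.78 to -0.22, edgeR adjusted p = 0.0926). SMAD3 lies on chromosome 15 (67063763 to 67195195, plus strand; gene positions are from GENCODE 29 on GRCh38).

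SMAD2, its closest paralog, was at 68.7, 120.7 and 83.7 CPM in siKMT2C and at 112.5, 97.7 and 77.5 CPM in siNC. The highest and the lowest of the 6 values were both in siKMT2C. SMAD2 (chromosome 18, 47808957 to 47931146) had a log2 fold change of -0.07 (SE 0.23, edgeR adjusted p = 0.911), with a 95% interval of -0.61 to 0.46 that does not reach a 2-fold change either way. The log2 ratio of SMAD2 to SMAD3 FPKM was -2.20 ± 0.441 in siKMT2C and -2.60 ± 0.393 in siNC (SD, n = 3). The difference of 0.40 was within the spread between libraries, which overlapped (exact two-sided permutation p = 0.5, adjusted p = 0.5 over 3 such ratios). Without siNC replicate 3 that difference was 0.20, and the log2 fold change of SMAD2 was -0.22 (edgeR adjusted p = 0.640). The level of the ratio rests largely on the lengths behind FPKM, 58135 bases for SMAD2 and 13134 for SMAD3. In mean CPM, SMAD2 and SMAD3 were at 91.1 and 92.0 in siKMT2C and at 95.9 and 130.1 in siNC. With CPM in place of FPKM the difference between groups was also 0.40.

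SMAD4, the partner that all receptor SMADs share, was at 82.4, 55.1 and 72.4 CPM in siKMT2C and at 99.3, 54.0 and 73.7 CPM in siNC. Replicate 1 was highest and replicate 2 lowest in both groups, and the groups overlapped throughout. Its log2 fold change was -0.11 (SE 0.24, 95% interval -0.67 to 0.45, edgeR adjusted p = 0.867). SMAD4 (chromosome 18, 51028394 to 51085045) overlaps another annotated gene on its strand, ENSG00000267699, whose 114 counts over the 6 libraries were 1.58% of those of SMAD4.

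SMAD7, the inhibitory SMAD of both branches, was at 12.8, 11.6 and 17.0 CPM in siKMT2C and at 20.5, 19.1 and 31.5 CPM in siNC. Replicate 3 was highest within each group, and the groups did not overlap. The log2 fold change was -0.78 (SE 0.24, 95% interval -1.34 to -0.22, edgeR adjusted p = 0.159), a mean of 58.2% of that in siNC. Without siNC replicate 3 it was -0.53 (edgeR adjusted p = 0.179). SMAD7 lies on chromosome 18 (48919853 to 48952052, minus strand).

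SMAD6, which acts mainly on BMP signals, had 6, 2 and 6 counts in siKMT2C and 4, 9 and 17 in siNC. These are too few for the expression filter, and the groups overlapped, so a difference was not detectable at this depth. Without the filter edgeR gave SMAD6 an adjusted p of 0.631. SMAD6 (chromosome 15, 66702228 to 66782848) is the gene whose window carries GTCTAGAC above. SMAD7 exceeded SMAD6 in FPKM in every library, by 5.93 ± 0.709 on the log2 scale in siKMT2C and 5.71 ± 0.865 in siNC (exact two-sided permutation p = 0.5, n = 3; adjusted p = 0.5). That difference of 0.23 was 0.0042 without siNC replicate 3, and it turned to -0.16 without siKMT2C replicate 2 and to -0.046 without siNC replicate 2.

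ID1, a BMP-responsive inhibitor of E proteins, was at 40.9, 52.8 and 50.2 CPM in siKMT2C and at 76.0, 72.3 and 74.2 CPM in siNC. The siNC values lay in a narrow band above all siKMT2C values. ID1 ranked first of the 10 genes in the edgeR test, with a log2 fold change of -0.63 (SE 0.14, 95% interval -0.95 to -0.30, edgeR adjusted p = 0.0735). It lies on chromosome 20 (31605283 to 31606515, plus strand).

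ID3, a paralog of ID1, was at 18.3, 16.4 and 19.1 CPM in siKMT2C and at 14.5, 15.6 and 20.7 CPM in siNC. The siKMT2C values lay inside the siNC range, and the log2 fold change was 0.08 (SE 0.18, 95% interval -0.33 to 0.50, edgeR adjusted p = 0.868), or 0.25 without siNC replicate 3 (edgeR adjusted p = 0.392). ID3 lies on chromosome 1 (23557918 to 23559794, minus strand).

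ID2 had 10, 3 and 6 counts in siKMT2C and 13, 14 and 12 in siNC, or 0.612, 0.193 and 0.369 against 0.744, 0.969 and 0.676 CPM. The groups did not overlap, and the counts were so low that the interval of the log2 fold change (-0.996, SE 0.47) ran from -2.07 to 0.08 (edgeR adjusted p = 0.333). ID2 (chromosome 2, 8678845 to 8684453) shares its start region with the antisense gene ID2-AS1, which had 2 counts in all.

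ID1 made up 73.1%, 79.9% and 76.3% of the summed FPKM of ID1, ID2 and ID3 in siKMT2C and 86.3%, 84.7% and 81.4% in siNC. Every siKMT2C share lay below every siNC share, with means of 76.5% and 84.1%. The difference of -7.69 percentage points gave an exact two-sided permutation p = 0.1 (n = 3 per group), the smallest that 3 against 3 libraries allow, and an adjusted p of 0.3 over the 3 ratios.

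BAMBI, the decoy receptor, was at 13.5, 18.4 and 12.2 CPM in siKMT2C and at 5.89, 6.78 and 9.97 CPM in siNC. The groups did not overlap, and siNC replicate 3 was the nearest to the siKMT2C values. BAMBI had the largest positive value of the 10 genes, with a log2 fold change of 0.96 (SE 0.25, 95% interval 0.37 to 1.55, edgeR adjusted p = 0.113). Without siNC replicate 3 the value was 1.21 and passed the edgeR test (adjusted p = 0.0353), in a fit that called 4.04% of all genes and no other member. BAMBI lies on chromosome 10 (28677342 to 28682939, plus strand).

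FST, the activin-binding antagonist, was at 119.8, 130.3 and 119.0 CPM in siKMT2C and at 92.5, 81.8 and 79.5 CPM in siNC. All siKMT2C values lay above the highest siNC value, at a mean of 145% of siNC. The log2 fold change was 0.54 (SE 0.12, 95% interval 0.25 to 0.83, edgeR adjusted p = 0.0786). FST lies on chromosome 5 (53480409 to 53487134, plus strand).

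**Figure D3:**
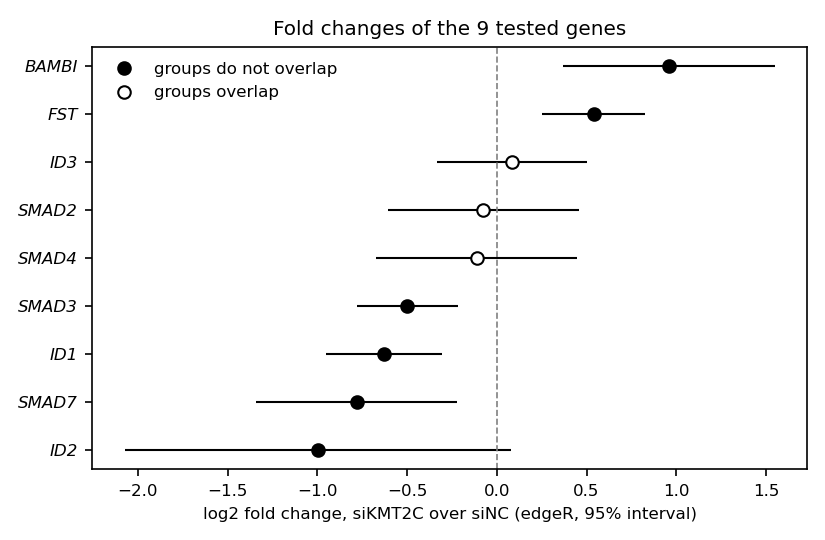
edgeR log2 fold change (siKMT2C over siNC) of the 9 tested genes with 95% intervals; filled points mark genes whose groups do not overlap. The intervals of SMAD3, ID1, SMAD7, BAMBI and FST leave out 0, and those of ID2, SMAD2, SMAD4 and ID3 span it.

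These calls depended on the model. DESeq2 called ID1 (adjusted p = 0.0097), FST (0.017), BAMBI (0.0196) and SMAD3 (0.0228), in a fit that called 5.56% of all genes. After a correction for transcript GC content and length edgeR called these 4 and SMAD7, with adjusted p from 0.0116 for FST to 0.0495 for ID1, in a fit that called 8.78% of all genes. The direction was the same under all 15 alternatives for SMAD3, SMAD7, ID1, BAMBI and FST, and under the 14 that gave ID2 a value. It turned under some for SMAD2, SMAD4 and ID3. The groups did not overlap for the genes that kept their direction, so leaving out a library could hardly turn it. The other alternatives refit the same counts, so the kept direction is no support beyond that lack of overlap.

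**Figure D4:**
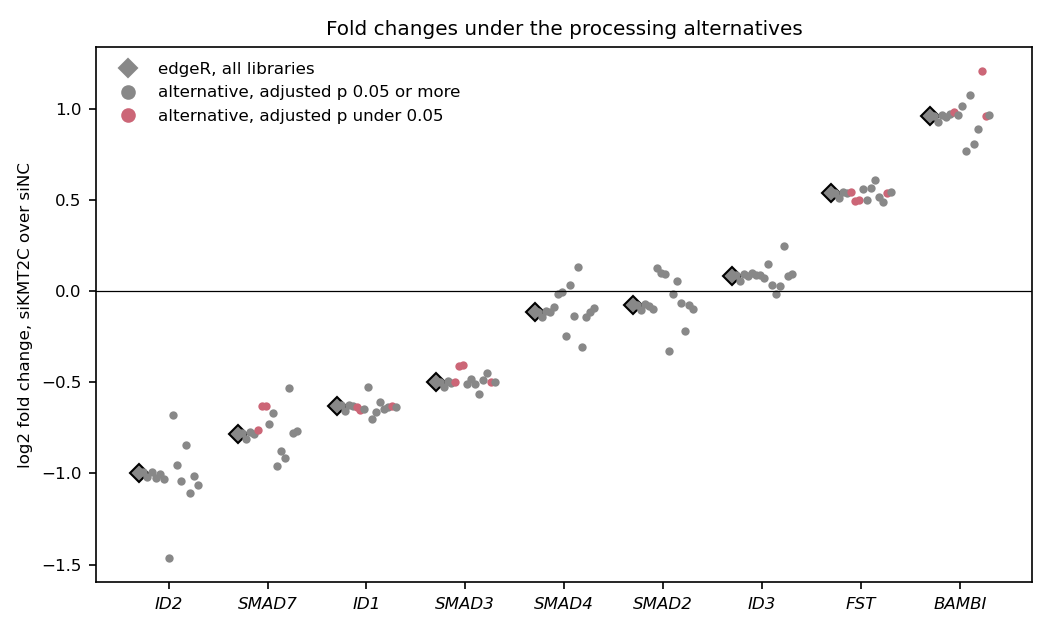
edgeR log2 fold change of the 9 tested genes with all libraries (diamonds) and under each processing alternative (circles; red where the adjusted p was under 0.05). Points for ID2, SMAD7, ID1 and SMAD3 stay below 0 and those for FST and BAMBI above it, while those for SMAD4, SMAD2 and ID3 fall on both sides.

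The 3′ untranslated regions of SMAD2, SMAD3 and SMAD7 each hold 1 copy of the 7-mer GTATAAA, which was found in an earlier scan of these same libraries. It occurs in 15.3% of 12007 tested genes with such a region, whose median log2 fold change was -0.12, against 0.01 in those without it. Since the 7-mer was picked from these data, that difference gives no independent support. ID1, ID2, ID3, SMAD4, SMAD6, BAMBI and FST hold no copy. The scanned regions were 32870 bases for SMAD2, 4659 for SMAD3 and 1519 for SMAD7. Those without a copy ran from 421 bases for ID1 to 6572 for SMAD4, and a longer region has more places for a 7-mer. The part of the 7-mer in the values of SMAD2, SMAD3 and SMAD7 was not tested.

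The other genes of the pathway were read from lists of 82 genes. Among the receptors 10 of 12 were tested, of which 2 fell and none rose, beside 1.5% of all genes called in either direction. Those that fell were the co-receptor TGFBR3 (-3.40, SE 0.21, edgeR adjusted p = 0.00171) and the activin receptor ACVR2B (-1.37, SE 0.16, edgeR adjusted p = 0.0123), as log2 fold changes. ACVR2B was at 7.22, 8.03 and 8.29 CPM in siKMT2C and at 18.8, 20.3 and 21.7 CPM in siNC. In 9 of the 10 the value was negative, with a median of -0.41, beside -0.0025 over all genes tested. BMPR2 (-0.43, SE 0.16) and ACVR2A (-0.63, SE 0.25) overlapped between groups and were not called.

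No ligand was called among 6 tested of 11, with a median of 0.06. INHBA, which encodes the activin A subunit that FST binds, was at 632.8, 682.6 and 788.3 CPM in siKMT2C and at 543.0, 585.9 and 495.3 CPM in siNC (log2 fold change 0.37, SE 0.13, edgeR adjusted p = 0.199). TGFB2 had a log2 fold change of -1.02 (SE 0.29, edgeR adjusted p = 0.136), while TGFB3 (-0.69, SE 0.37) and TGFB1 (0.12, SE 0.18) were further from the threshold. Of the BMP ligands, named after their values were seen, BMP2 (0.04, SE 0.17) was tested, whereas BMP4 had 10 counts in siKMT2C and 27 in siNC, BMP6 had 16 and 4, and BMP7 had 0.

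All 17 other SMADs and SMAD regulators were tested and none was called, with a median of -0.09. By p the corepressor TGIF2 came first (1.28, SE 0.36, edgeR adjusted p = 0.127), followed by the acetyltransferase EP300 (-0.31, SE 0.13), ZFYVE9 (-0.23, SE 0.14) and SMAD1 (0.17, SE 0.13). Among the partners of ID proteins, TCF3 (0.64, SE 0.26), TCF4 (-0.21, SE 0.16) and TCF12 (0.01, SE 0.24) overlapped between groups and ID4 had 0 counts. TCF3 was at 64.2, 55.9 and 71.3 CPM in siKMT2C and at 30.4, 32.5 and 59.7 CPM in siNC, so siNC replicate 3 alone made its groups overlap. Of the other secreted antagonists 7 of 14 were tested and none was called. DCN (-1.57, SE 0.32, edgeR adjusted p = 0.0589), TWSG1 (-0.57, SE 0.19) and the BMP antagonist NOG (1.03, SE 0.40) did not overlap between groups, FSTL3 (0.55, SE 0.34) did, and DCN is also one of the fibroblast markers above.

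Of the TGF-β target genes all 16 were tested, and 2 rose and none fell, beside 1.5% of all genes called in either direction. The matricellular gene CCN2 was at 23.7, 19.4 and 21.9 CPM in siKMT2C and at 10.2, 8.93 and 11.7 CPM in siNC (log2 fold change 1.07, SE 0.17, edgeR adjusted p = 0.0319). COL1A1 (-0.77, SE 0.19, edgeR adjusted p = 0.103) and TAGLN (0.95, SE 0.28) were not called and had values of opposite sign, and 10 of the 16 values were negative, with a median of -0.05. COL1A1 is a fibroblast marker as well.

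Of 8 other BMP target genes 6 were tested and none was called, while all 6 had negative values with a median of -0.65, beside -0.0025 over all genes tested. The homeobox gene MSX2 was at 5.99, 7.07 and 7.56 CPM in siKMT2C and at 12.9, 12.8 and 10.5 CPM in siNC (-0.81, SE 0.18, edgeR adjusted p = 0.0734). DLX2 (-0.83, SE 0.28) and MSX1 (-0.75, SE 0.32) did not overlap between groups, and GATA3 (-0.50, SE 0.23) did.

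**Figure D5:**
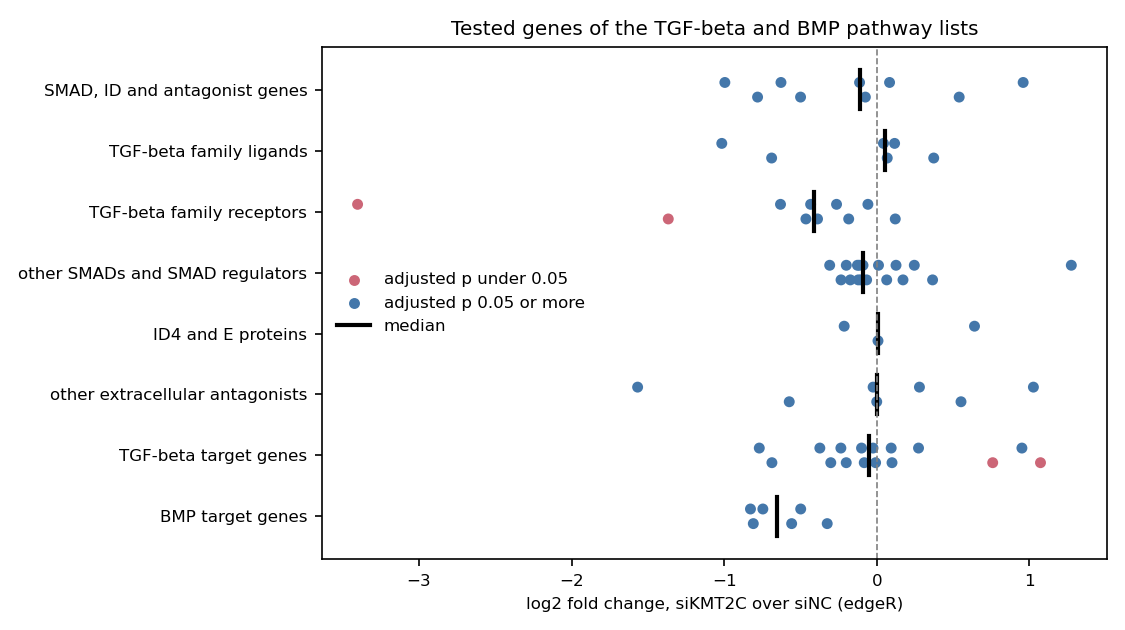
edgeR log2 fold change (siKMT2C over siNC) of every tested gene of the 10 (first row) and of the other pathway lists, with list medians as bars and genes with an adjusted p under 0.05 in red. The red points on the left are TGFBR3 and ACVR2B, CCN2 is the red point farthest right, and all tested BMP targets lie left of 0.

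Over the 6 libraries the log2 CPM profiles most like that of ID1 were those of PPP1R3D (Pearson r = 0.996), PDE4A (0.994) and GSTT2B (0.987), out of 12817 genes compared. Those most like FST were NLK (0.999), MYEF2 (0.997) and ZNF845 (0.997). With 6 points in 2 groups, 335 genes had an r over 0.9 with ID1 and 579 with FST, and all points share the same libraries, so these names are a description only.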

How the data were processed

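RNA from 6 libraries was sequenced. The authors deposited a table with whole-number counts per gene and FPKM values, per the file headers; CASAVA 1.8 and TopHat2 2.0.6 are named in the submitters' processing notes. They list a mouse build (mm10) although all identifiers are human Ensembl ones, and the counting program, strand setting and human build are not given in the sources used here. For the 10 genes the deposited FPKM matched rescaled counts within a relative 0.000215. Positions and transcript GC content come from GENCODE 29, promoters from RefSeq, and 57532 of 58302 entries matched a symbol.

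Counts were tested with edgeR 4.0.16 in R 4.3.3 (filterByExpr, TMM, robust quasi-likelihood test) over 15063 genes, Benjamini-Hochberg adjusted, threshold 0.05; the code was tested on simulated data. Each SE was derived from the log2 fold change and the root of its F statistic. Alternatives were RLE or library-size scaling, an unfiltered table, a minimum of 1 CPM in 3 libraries, voom in limma 3.58.1, DESeq2 1.42.0, a loess correction for GC content and length (span 0.3), a replicate block and leaving out each library. FPKM ratios used exact permutation tests (scipy 1.17.1). Named genes were the 10, KMT2C, at most 4 of each pathway list by smallest p, and the profiles most like ID1 and FST; 1 gene that this rule takes is not reported here, and the few others named, such as the BMP ligands, were added after their values were seen. The genes and lists were chosen with earlier results of these data known. Genes that overlap or resemble others may share reads.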

Additional observations from a re-analysis of the deposited data

How the results depend on the processing

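The number of genes called was 226 of 15063 tested (edgeR) and 968 of 15063 with a replicate block. It was 1319 of 15022 with the GC and length correction, 1399 of 15022 with both, and 802 of 14427 with DESeq2. Leaving out 1 library gave 16 to 620. The number of the 10 genes called was 0, and then 4 with the replicate block (FST, ID1, SMAD3 and SMAD7), 5 with the correction, 3 with both, 4 with DESeq2, and 0 to 1 when 1 library was left out. It was also 0 with limma-voom, with RLE or library-size scaling, without a filter and with the minimum of 1 CPM. Same-numbered libraries of the 2 groups had deviations that correlated at 0.01, 0.18 and 0.48 for replicates 1, 2 and 3, the last being the highest of all pairs. However, siKMT2C replicate 2 correlated better with siNC replicate 1 (0.39) than with its own number. The best match of siKMT2C replicate 1 was siNC replicate 2 (0.07). The numbers were therefore not taken to pair the libraries.

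The sign of SMAD2 turned with the GC and length correction (0.13), with that and the replicate block (0.10), without siKMT2C replicate 1 (0.093) and without siNC replicate 1 (0.056); leaving out 1 library gave SMAD2 -0.33 to 0.093. SMAD4 turned without siKMT2C replicate 2 (0.03) and without siNC replicate 1 (0.13), with a range of -0.31 to 0.13, and ID3 without siNC replicate 1 (-0.017), with a range of -0.017 to 0.25. The difference in the ratio of SMAD7 to SMAD6 ran from -0.16 to 0.73 when 1 library was left out, that of SMAD2 to SMAD3 from 0.16 to 0.59, and that in the ID1 share from -9.41 to -6.02 percentage points. Blocked by replicate number, 3 pairs cannot give a p below 0.25. The causes were not tested. Counts of SMAD6 and ID2 limit any statement on them.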

Other observations

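SMAD5, a BMP receptor SMAD singled out after its values were seen, was at 203.7, 223.5 and 183.4 CPM in siKMT2C and at 233.7, 201.6 and 38.6 CPM in siNC. The low value was that of siNC replicate 3 alone, and the edgeR log2 fold change was 0.37 (SE 0.54, adjusted p = 0.789). JUNB, a TGF-β target, was highest in replicate 3 of both groups, at 218.2 CPM in siKMT2C and 285.6 CPM in siNC against 137.5 to 150.1 CPM in the other 4 libraries, as was SMAD7 within each group.

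Among genes that carry feedback in the pathway, SMAD7 lay below its siNC range in siKMT2C but was not called (edgeR adjusted p = 0.159). SMAD6 was too low to be tested. The antagonist BAMBI lay above its siNC range (log2 fold change 0.96, edgeR adjusted p = 0.113). SKIL (-0.13, SE 0.16), PMEPA1 (-0.10, SE 0.17), SMURF1 (-0.12, SE 0.12) and SMURF2 (0.07, SE 0.14) had values within 1 SE of 0, with edgeR adjusted p from 0.676 to 0.870. These 4 were also named after their values were seen.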
